A study of Rattus norvegicus with 192 samples.

Results

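Gdf15 encodes growth differentiation factor 15, a secreted stress hormone, and it was described here in 6 tissues of rats that had breathed phosphine (PH3) or air. It is 1 of 13437 genes named on the arrays and was read by 1 probe set, the only one of 31042 whose annotation names Gdf15 alone. It was chosen on its level in air and its PH3 minus Air differences, so these values are given as a description and without a test. Tests are given for other genes of the same arrays and for the spread of Gdf15 within groups, which the choice did not use.

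GDF15 is a distant member of the TGF-β superfamily that is made as a precursor, cleaved by furin-like proteases and released into blood. It acts through the receptor GFRAL and its co-receptor RET in the hindbrain, where it lowers food intake and causes nausea-like behaviour. Its gene is switched on by the integrated stress response through ATF4 and CHOP (gene Ddit3) and by early growth response factors, and kidney and damaged heart muscle are known sources of the hormone. PH3 is a gas used against insects in stored grain, and it inhibits cytochrome c oxidase, the last enzyme of the mitochondrial respiratory chain.

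All animals were adult male Sprague-Dawley rats. PH3 rats breathed 660 ppm in a whole-body chamber for 25 min, a product of 16500 ppm×min and 0.71 of the median lethal product, and Air rats are labelled 0 ppm for 25 min. Kidney, heart, lung, blood, brain stem and olfactory bulb were taken 1, 3, 6 or 24 h later from rats killed under ketamine and xylazine, which gave 48 groups of 3 to 5 rats and 192 arrays from 59 rats. The labels give no age in weeks, and each array held the tissue of 1 rat. Blood RNA was prepared with a different kit from that used for the solid tissues.

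Each of the 6 tissues had its own markers above all tissues of another kind, with 8 of 9 markers in kidney, 9 of 9 in heart, 10 of 10 in lung and 7 of 8 in blood. Brain stem and olfactory bulb had 9 of 9 nervous tissue markers above the other tissues. Array medians ran from 4.98 to 5.41 log2 units, and no counts or detection calls come with these values. One kidney array needs care: among 34 rats, the kidney labelled Rat363 of the PH3 group at 3 h matched the other tissues of Rat368 best (mean r 0.834 against 0.328 for the next rat). Both rats belong to the same group, so group values are not touched by it.

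In the RefSeq annotation of GRCr8, Gdf15 lies on the forward strand at chr16:18838436-18842022, a stretch of 3587 bases, and its 2 transcripts start 829 bases apart. The 250 bases before each start are shown because the 2 starts carry very different promoters; capitals mark GC boxes (GGGCGG on either strand) and a TATA box (TATAAA). The windows are chr16:18838186-18838435 for start 1 and chr16:18839015-18839264 for start 2, both 5′ to 3′ on the forward strand.
Gdf15 start 1: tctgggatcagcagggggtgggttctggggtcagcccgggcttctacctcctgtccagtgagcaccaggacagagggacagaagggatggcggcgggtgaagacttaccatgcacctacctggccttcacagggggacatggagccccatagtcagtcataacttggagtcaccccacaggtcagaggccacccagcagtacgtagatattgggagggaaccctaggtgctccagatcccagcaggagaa
Gdf15 start 2: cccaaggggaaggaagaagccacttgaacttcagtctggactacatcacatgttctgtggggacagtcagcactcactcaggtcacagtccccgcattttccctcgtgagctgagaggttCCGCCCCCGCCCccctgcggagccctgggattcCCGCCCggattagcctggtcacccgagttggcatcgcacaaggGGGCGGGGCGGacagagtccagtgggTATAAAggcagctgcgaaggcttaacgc
The window before start 2 held 5 GC box matches, 2 of which overlap, and 1 TATA box match 28 to 23 bases before the start, the usual place of such a box. The window before start 1 held neither. Over 33469 RefSeq windows of this length, both strands searched, 30.5% held a GC box and 12.9% a TATA box. The ATF4 and CHOP element TGATGNAA was in 3.4% of windows, the cAMP response element TGACGTCA in 1.59%, the AP-1 site TGANTCA in 6.34% and the E-box CACGTG in 5.59%. These 4 motifs were in neither Gdf15 window, which says only that the letters are not in these 250 bases. The probe set was not assigned to either start.

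In rats breathing air, Gdf15 was brightest in kidney and dimmest in the nervous tissues. The log2 level in Air was 6.91 ± 0.30 (SD, n = 16) in kidney, with arrays from 6.38 to 7.61. It was 4.83 ± 0.38 (n = 16) in lung, 4.32 ± 0.38 (n = 15) in blood and 3.96 ± 0.25 (n = 16) in heart. Brain stem stood at 3.24 ± 0.22 (n = 16) and olfactory bulb at 3.07 ± 0.13 (n = 17). Every Air kidney lay above every Air array of the other tissues, whereas each further pair of neighbours in this order overlapped. Whether the tissues were normalized together is not stated, so these levels order the tissues only as the deposited values do. In bulk tissue, fewer cells of a type and less RNA per cell cannot be told apart, here and in all that follows.

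**Figure D1:**
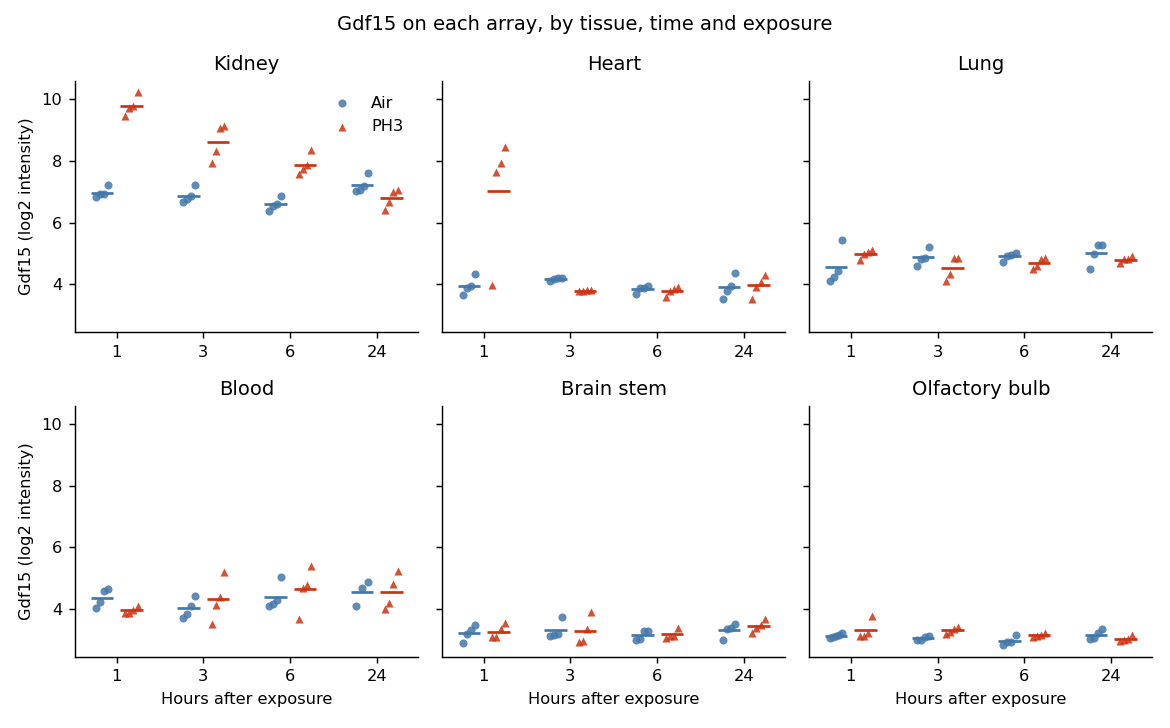
Gdf15 log2 intensity on each of the 192 arrays (vertical axis) against hours after exposure, with 1 panel per tissue, circles for Air, triangles for PH3 and a bar at each group mean. PH3 kidneys lie above Air kidneys at 1, 3 and 6 h, and 3 of 4 PH3 hearts at 1 h lie near 8 while the other lies at the Air level.

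After PH3, Gdf15 was much higher in kidney and, at 1 h, in heart, and it differed by less than 0.5 log2 units in 20 of the 24 comparisons. The kidney difference persisted through 6 h, whereas in heart it was seen at 1 h and in 3 of 4 rats. PH3 arrays all lay above Air arrays in 4 comparisons, all below in 1, and overlapped in 19.

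In kidney at 1 h, the 4 Air rats had Gdf15 at 6.92, 6.83, 7.21 and 6.92 log2 units. The 4 PH3 kidneys stood at 9.47, 9.78, 9.72 and 10.2, so the lowest PH3 kidney lay above 9 and the highest Air kidney near 7. The difference was 2.83 ± 0.22 log2 units (SE of the limma fit), or 7.11-fold, the 6th largest rise of 31042 probe sets. At that time 3.27% of all probe sets had every PH3 kidney above every Air kidney.

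At 3 h the Air kidneys were at 6.87, 6.77, 6.66 and 7.21, and the PH3 kidneys at 7.92, 9.08, 9.13 and 8.32. The groups again did not overlap, which was so for 2.87% of probe sets, and Rat359 had the lowest of the PH3 values. The difference was 1.74 ± 0.22, or 3.33-fold, the 4th largest rise on the array and 61.4% of the 1 h difference on the log2 scale. At 6 h the Air kidneys were at 6.38, 6.55, 6.85 and 6.59, and the PH3 kidneys at 7.75, 7.86, 7.57 and 8.35. The difference of 1.29 ± 0.22, or 2.44-fold, ranked 88th, with no overlap, as in 1.77% of probe sets.

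By 24 h the PH3 kidneys were no longer the higher group. Air kidneys were at 7.04, 7.18, 7.05 and 7.61, and PH3 kidneys at 6.67, 7.06, 6.40 and 6.99, so 3 of 4 PH3 kidneys lay below the lowest Air kidney. The difference was −0.44 ± 0.22. Air kidneys themselves ran from a mean of 6.59 at 6 h to 7.22 at 24 h. With Air kidneys of all times as the control, the 24 h difference was −0.13 and the 6 h difference 0.97.

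In heart at 1 h, the Air rats had Gdf15 at 3.86, 3.93, 4.34 and 3.65. The PH3 hearts of Rat343, Rat350 and Rat357 stood at 8.45, 7.95 and 7.65, and that of Rat351 at 3.99. Thus 3 hearts exceeded every Air heart by more than 3 log2 units and 1 lay within the Air range. The difference over all 4 rats was 3.06 ± 0.50, or 8.36-fold, 6th of 31042 probe sets. A fit of the 1 h hearts alone gave a larger SE of 0.82. The 3 other hearts had a mean of 8.01 ± 0.40 (SD, n = 3), and without Rat351 the difference was 4.07, or 16.8-fold. Those 3 hearts were thus brighter for Gdf15 than any Air kidney.

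At 3 h the heart difference was small and opposite. The Air hearts were at 4.20, 4.10, 4.17 and 4.18, and the PH3 hearts at 3.76, 3.80, 3.79 and 3.82. All 4 PH3 hearts lay below all Air hearts, as in 1.04% of probe sets, by −0.37 ± 0.50. That SE is shared by all groups of the tissue, including the divided PH3 group at 1 h, and a fit of the 3 h groups alone gave an SE of 0.10. Against Air hearts of all times the difference was −0.17. Hearts of both groups overlapped at 6 h (−0.06 ± 0.50) and at 24 h (0.06 ± 0.50).

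**Figure D2:**
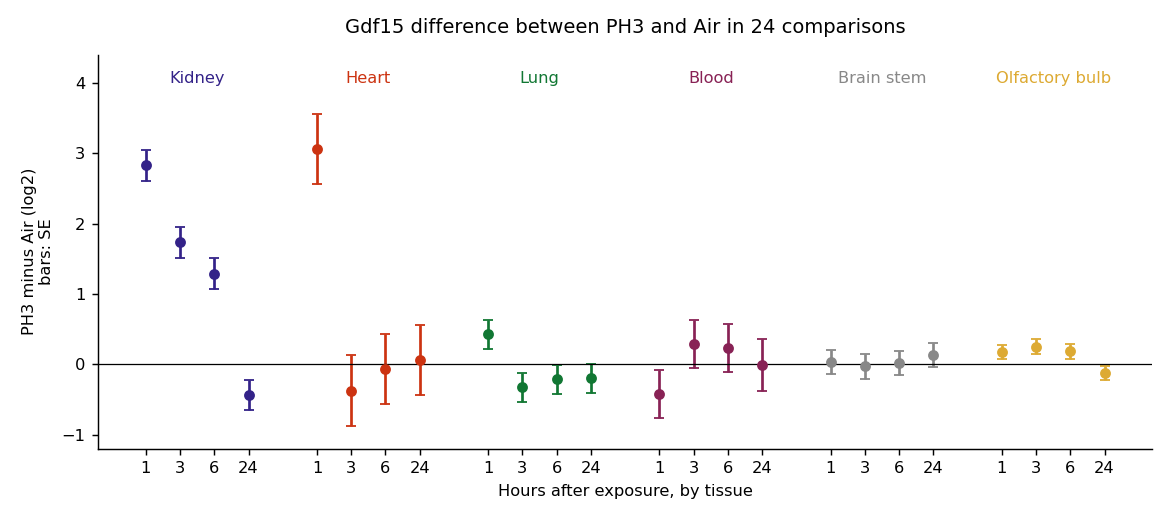
PH3 minus Air difference of Gdf15 in log2 units (points, vertical axis) with the SE of the limma fit (bars) in 24 comparisons, ordered by tissue and by hours after exposure. Kidney falls from 2.83 at 1 h to −0.44 at 24 h, heart stands out at 1 h with 3.06, and the other tissues lie between −0.42 and 0.43.

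In lung, 3 of 4 Air rats at 1 h had Gdf15 between 4.11 and 4.42 and Rat354 had 5.44, while the PH3 lungs stood between 4.78 and 5.11. The difference of 0.43 ± 0.21 therefore came with overlapping groups, and it was 0.15 against Air lungs of all times. The mean over 9 cardiac muscle markers was 7.10 to 8.35 in these Air lungs and 6.55 to 10.0 in the PH3 lungs. By limma 0 of the 9 were called, against 2.35% of probe sets called higher. The part of heart tissue in the lung values was not tested. At 3 h the Air lungs were at 5.20, 4.59, 4.81 and 4.86 and the PH3 lungs at 4.11, 4.34, 4.86 and 4.85, a difference of −0.33 ± 0.21. The 3′ index, the mean 3′ minus 5′ difference of the GAPDH and beta-actin control probe sets and a sign of RNA quality, also separated these groups. It was 0.343 to 0.521 in Air lungs and 0.0952 to 0.247 in PH3 lungs, and with it as a covariate the Gdf15 difference was −0.01. The means of 2 leukocyte lists separated the groups too. The mean over 8 blood leukocyte markers was 7.39 to 8.41 in Air lungs and 8.45 to 8.90 in PH3 lungs, and that over 9 macrophage markers 7.69 to 8.05 and 8.11 to 8.28. All 7 neutrophil markers had positive differences, and 3 were called higher by limma, S100a8 (1.41), Mmp8 (1.36) and S100a9 (1.21). Blood leukocyte markers had 4 of 8 called, the same S100a8 and S100a9 with Cd3e (0.57) and Ptprc (0.50), and macrophage markers 1 of 9, Aif1 (0.45). At that time 5.86% of all probe sets were called higher. The part of the index and of these cells in the result was not tested further. Lungs differed by −0.21 ± 0.21 at 6 h and −0.20 ± 0.21 at 24 h.

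In blood at 1 h, Air arrays ran from 4.01 to 4.63 and PH3 blood from 3.87 to 4.10, a difference of −0.42 ± 0.34 with 3 of 4 PH3 samples below the lowest Air sample. PH3 blood at 3 h was at 5.21, 4.12, 3.51 and 4.39, a spread wider than the difference from Air of 0.29 ± 0.34. The blood differences at 6 and 24 h were 0.24 ± 0.34 and −0.01 ± 0.37.

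Brain stem, the site of the GDF15 receptor, had Gdf15 differences of 0.04, −0.03, 0.02 and 0.13 at 1, 3, 6 and 24 h, each ± 0.17, with overlapping groups. In olfactory bulb at 3 h the Air rats were at 3.08, 3.00, 3.12 and 2.98 and the PH3 rats at 3.20, 3.42, 3.24 and 3.35. The groups did not overlap, as in 3.24% of probe sets, but the difference was 0.25 ± 0.10 at the dim end of the scale. There 7 of 7 neutrophil markers (median 0.76) and 6 of 6 red cell markers (median 0.71) had positive differences, against a median of 0.006 for all probe sets. By limma 0 of them and 0 of all probe sets were called, and 4 and 3 had an unadjusted p under 0.05. Macrophage markers were positive in 5 of 9. The part of these cells in the Gdf15 difference was not tested. The olfactory bulb differences at 1, 6 and 24 h were 0.18, 0.18 and −0.12, with overlap.

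The divided heart group at 1 h was traced through the same rats. Rat351, whose heart Gdf15 lay at the Air level, had 9.72 in kidney, a rise that was 96.4% of that of the other PH3 kidneys. Its heart array matched the other tissues of Rat351 best among 36 rats (mean r 0.801 against 0.257 for the next). Its heart 3′ index was 0.234, and the index was 0.283 in Rat343, 0.214 in Rat350 and 0.868 in Rat357. Air hearts ran from 0.228 to 0.278, so the index of Rat351 lay within the Air range and those of the other 3 PH3 hearts outside it. With the index as a covariate the heart Gdf15 difference at 1 h was 2.99, and its part in the result was not tested further. Over the 284 probe sets called in heart at 1 h, the response of Rat351 had a median size of 45.7% of that of the other PH3 hearts. In its kidney, lung and brain stem the corresponding sizes were 70.8%, 68.7% and 69.2%. These probe sets were called with Rat351 in the group, which favours those where it responded too.

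**Figure D3:**
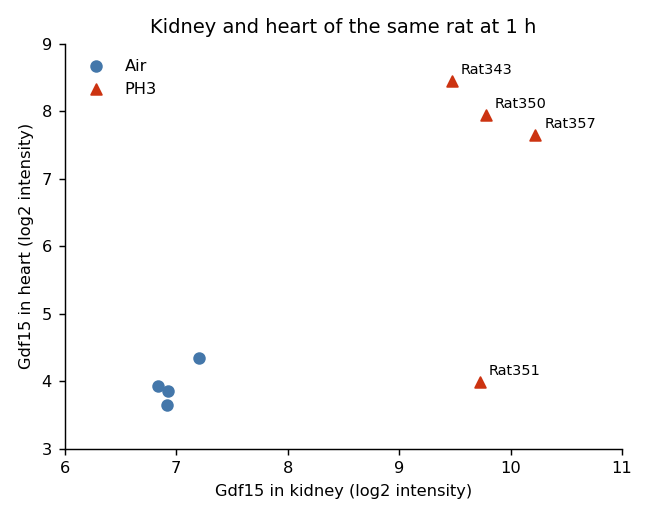
Gdf15 log2 intensity in heart (vertical axis) against kidney (horizontal axis) of the same 8 rats at 1 h, circles for Air and named triangles for PH3. Rat351 lies with the other PH3 rats in kidney, at 9.72, and with the Air rats in heart, at 3.99.

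The heart of Rat351 was also low for several genes other than Gdf15, and not for all that differed in the other hearts. Fosb, an AP-1 subunit, was at 4.78 there and at 7.99 to 8.50 in the other PH3 hearts. Egr1, an early growth response factor that can act on the GDF15 promoter, was at 8.60 against 10.7 to 11.1. Atf3, a stress-induced factor, was at 8.56 against 10.6 to 10.9, still above the highest Air heart at 7.36. Ddit3 was at 8.35, below the lowest Air heart at 8.54, while the other PH3 hearts ran from 9.21 to 9.72. Its kidney was low for some genes too. There the EGF family ligand Hbegf was at 4.45 against 5.63 to 5.93 in the other PH3 kidneys, and Myc at 6.28 against 7.10 to 7.72. Others were not low in that kidney, with Ddit3 at 9.18 against 8.32 to 8.83 and Fosb at 6.52 against 6.45 to 7.89.

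Fkbp5 and Pdk4, chosen after their values were seen, stood apart from this. Fkbp5, a glucocorticoid target, was at 8.68 in the heart of Rat351, against 8.55 to 8.80 in the other PH3 hearts and 6.99 to 7.61 in Air. Pdk4, which restrains pyruvate oxidation, was at 11.3, against 10.9 to 11.7 in the others and 10.2 to 10.5 in Air. Over all 4 PH3 hearts, Fkbp5 was called higher (1.40 ± 0.15, limma adjusted p 8.1e-06). Pdk4 missed the threshold (0.83 ± 0.30, limma adjusted p 0.22). In the lung of Rat351, Gdf15 was 4.78, the lowest of the PH3 lungs.

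**Figure D4:**
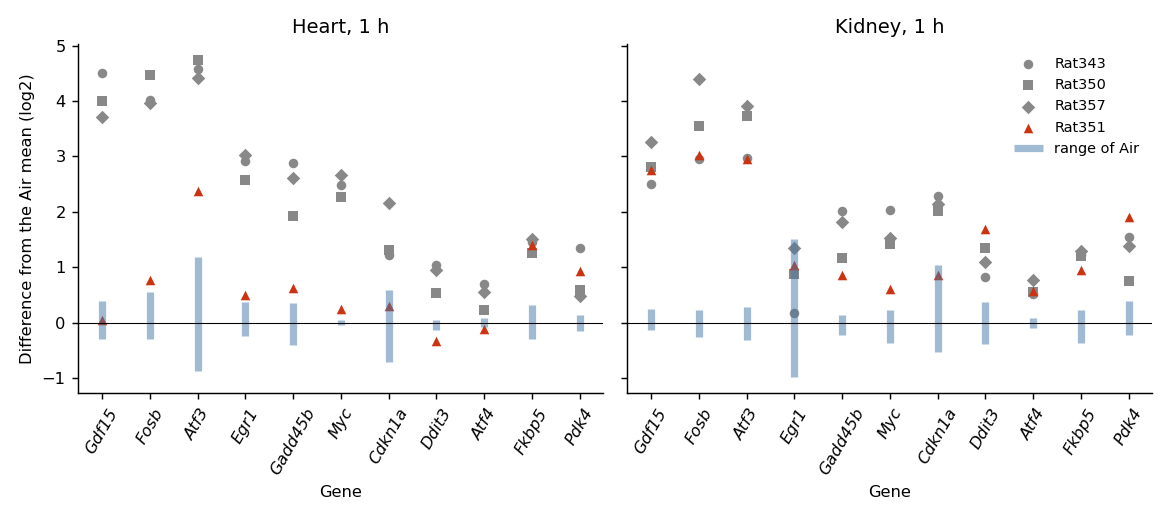
Difference of each PH3 rat from the Air mean in log2 units (vertical axis) for 11 genes in heart and kidney at 1 h; triangles are Rat351, the other symbols the other PH3 rats, and bars the range of the 4 Air rats. In heart, Rat351 lies near 0 for Gdf15 and with the others for Fkbp5.

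Likeness to Gdf15 in the PH3 minus Air differences was measured as Pearson's r over the 24 differences, among 8799 probe sets of 1 gene each whose differences spanned at least 1 log2 unit. Comparisons of a tissue share its fit, so r is a description. The 8 closest were Gadd45b, a stress sensor (r = 0.87), Slc25a25, a mitochondrial ATP-Mg/phosphate carrier (0.86), the transcription factor Myc (0.85) and the kinase Pim1 (0.84). They were followed by Fosb (0.84), the EGF family ligand Hbegf (0.83), the AP-1 subunit Jun (0.83) and Atf3 (0.82).

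Likeness rested largely on kidney and heart at 1 h. Without those comparisons, over the other 22, r was 0.68 for Slc25a25, 0.60 for Jun, 0.44 for Gadd45b and 0.22 for Atf3. In the kidney time course, Fosb differed by 3.49 at 1 h, 0.85 at 3 h and 0.17 at 6 h, and Atf3 by 3.39, 1.07 and −0.14. At 6 h the 8 genes lay between −0.14 and 0.51, beside 1.29 for Gdf15, a difference between genes that was not tested.

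**Figure D5:**
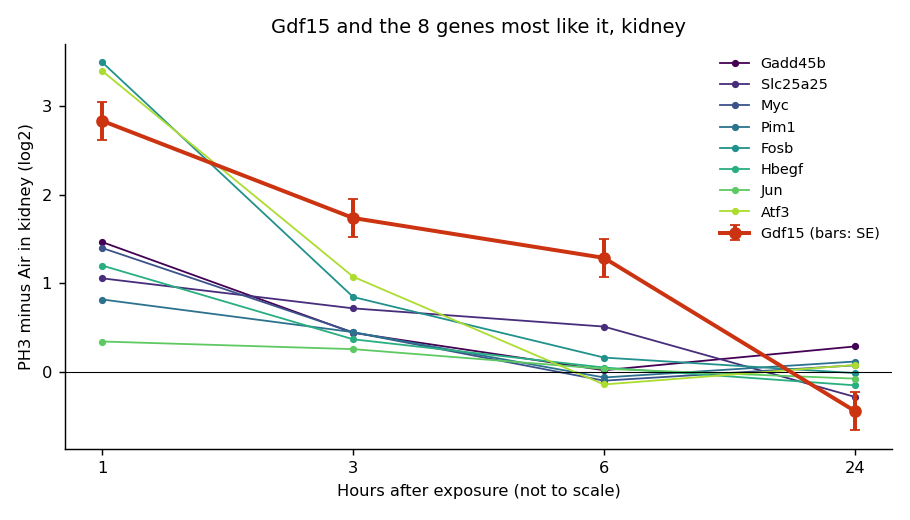
PH3 minus Air difference in kidney in log2 units (vertical axis) at 1, 3, 6 and 24 h (evenly spaced) for Gdf15, with the SE, and for the 8 genes most like it. At 6 h Gdf15 stands at 1.29 and the other genes between −0.14 and 0.51.

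Genes of the ATF4 and integrated stress response, the pathway best known for inducing GDF15, rose in part in kidney. At 1 h, 6 of 31 measured members were called higher and 0 lower by limma with Benjamini-Hochberg adjustment over all probe sets (adjusted p under 0.05), when 1.51% of all probe sets were called higher and 0.841% lower. Of the 31, 22 had positive differences, and the list's median was 0.11 against −0.002 for all probe sets. The called members were Atf3 (3.39 ± 0.26, adjusted p 2.7e-09), Ddit3 (1.24 ± 0.18), Cebpb (1.02 ± 0.19), the eIF2α phosphatase subunit Ppp1r15a (0.97 ± 0.14), Herpud1 (0.67 ± 0.10) and Atf4 itself (0.60 ± 0.09).

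Several enzymes and regulators further along this pathway did not pass the test in kidney at 1 h. The differences were 0.27 ± 0.21 for asparagine synthetase (Asns), 0.26 ± 0.14 for Trib3, 0.44 ± 0.19 for Chac1 and −0.07 ± 0.14 for Atf5. At 3 h, when 0.261% of probe sets were called higher, 1 of 31 members was called. It was Ddit3 at 1.29 ± 0.18 (limma adjusted p 0.00029), as high as at 1 h, and 24 members were positive. At 6 h and at 24 h, 0 of 31 were called, when 0.00966% and 0.0% of probe sets were called higher; 3 and 1 had an unadjusted limma p under 0.05. Ddit3 was then at 0.39 ± 0.18 and 0.13 ± 0.18.

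In heart at 1 h, 3 of 31 members were called higher and 1 lower, against 0.454% and 0.461% of all probe sets. Atf3 rose by 4.03 ± 0.55, Cebpb by 1.20 ± 0.23 and Ppp1r15a by 0.81 ± 0.15, and the eIF2α kinase Eif2ak3 fell (−0.62 ± 0.15). Ddit3 (0.55 ± 0.18, limma adjusted p 0.16) and Atf4 (0.34 ± 0.14, 0.338) missed the threshold. Without Rat351, 6 members were called higher against 1.19% of probe sets, with Ddit3 (0.84 ± 0.13), Trib3 (0.96 ± 0.22) and the amino acid transporter Slc7a1 (1.30 ± 0.25) added. At 3, 6 and 24 h 0 of 31 were called in heart, against 0.00322%, 0.0% and 0.00644% of probe sets called higher, and 4, 0 and 4 had an unadjusted limma p under 0.05.

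Lung had such calls too, and its Gdf15 difference at 1 h was 0.43 ± 0.21, or 0.72 without Air Rat354. The relation between the calls and Gdf15 was not tested. At 1 h, 6 of 31 members were called higher there, against 2.35% of probe sets. They were Atf3 (1.11 ± 0.29), the transporters Slc7a1 (0.88 ± 0.14) and Slc7a5 (0.83 ± 0.18), Cebpb (0.56 ± 0.13), Ppp1r15a (0.34 ± 0.09) and Atf4 (0.28 ± 0.07). With the rat as a block over all tissues 1 of them was called. At 3 h 5 members were called higher, against 5.86% of probe sets, and the 3′ index and leukocyte markers differed between the groups. The called members were Cth (0.75 ± 0.19), Stc2 (0.67 ± 0.20), Ddit3 (0.53 ± 0.11), Slc3a2 (0.38 ± 0.09) and Asns (0.33 ± 0.11).

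Cdkn1a, the cell cycle inhibitor p21, rose in several tissues at 1 h. The difference was 1.83 ± 0.32 in kidney (limma adjusted p 0.001) and 1.82 ± 0.28 in lung (limma adjusted p 0.00015). It also rose in brain stem, by 1.22 ± 0.21, where Gdf15 differed by 0.04 and 0.19% of probe sets were called higher. In heart it stood at 1.25 ± 0.38 (limma adjusted p 0.125), and without Rat351 at 1.56 ± 0.39 (limma adjusted p 0.0265). Mdm2, a ubiquitin ligase, differed by −0.04 ± 0.08 in kidney, −0.08 ± 0.11 in heart and −0.16 ± 0.10 in lung at 1 h, and passed the test in none of them.

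Of 19 measured transcription factors reported to act on the GDF15 promoter, 5 were called higher in kidney at 1 h, against 1.51% of all probe sets: Atf3, Ddit3, Cebpb, Atf4 and the hypoxia factor Hif1a (0.34 ± 0.08). In heart 3 were called, Atf3, Cebpb and Egr1 (2.25 ± 0.51, limma adjusted p 0.025), against 0.454% of probe sets. Without Rat351 it was 5, with Ddit3 and the zinc finger factor Klf4 added, against 1.19%. In lung at 1 h 3 were called, Atf3, Cebpb and Atf4, against 2.35%. Egr1 differed by 0.86 ± 0.52 in kidney, where its adjusted p was 0.56, and Air kidneys already ranged from 7.46 to 9.97.

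Genes of the receptor and of GDF15 processing were read next, and Gfral, the receptor itself, was not analysed here. Of 13 measured members 0 were called by limma in kidney or heart at any time, and 0 to 2 in a comparison had an unadjusted p under 0.05. With 1.51% of probe sets called higher in kidney at 1 h and 0.454% in heart, a count of 0 among 13 is near the background. Without Rat351, the proprotein convertase Pcsk6 was called lower in heart at 1 h (−0.53 ± 0.14, limma adjusted p 0.0345), when 1.28% of probe sets were called lower. In lung at 1 h 2 of 13 rose, against 2.35% of probe sets. They were the co-receptor Ret (1.09 ± 0.21, limma adjusted p 0.00129) and neurturin (Nrtn, 0.90 ± 0.15), a ligand of a related GFRA receptor that also signals through RET. Ret was at 6.26 to 6.46 in the Air lungs and at 7.05 to 7.84 in the PH3 lungs, with no overlap, as in 4.33% of probe sets. Furin, a protease of the class that matures GDF15, differed by 0.05 ± 0.10 in kidney and 0.09 ± 0.19 in heart at 1 h.

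Of 21 other TGF-β superfamily ligands measured, 0 were called higher by limma in kidney at 1 h (2 at an unadjusted p under 0.05 in either direction), against 1.51% of all probe sets, which is near the background for a list of this size. At 3 h 1 was called, the bone morphogenetic protein Bmp2 (0.77 ± 0.17), against 0.261%. Heart at 1 h had 1, the muscle growth inhibitor Mstn (0.68 ± 0.17, limma adjusted p 0.0466), against 0.454%. That call rested on Rat351: without it Mstn was at 0.48 ± 0.15 (limma adjusted p 0.104), and the 1 ligand called was Inhbb, the activin βB subunit (1.74 ± 0.42, limma adjusted p 0.0227), against 1.19%. In lung at 1 h Bmp2 rose (1.49 ± 0.32), against 2.35% of probe sets called higher, and Bmp4 fell (−0.51 ± 0.11), against 1.89% called lower. At 3 h Bmp3 fell there (−1.15 ± 0.34), against 4.03% of probe sets.

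Fgf21, the other hormone often induced with GDF15 when mitochondria are impaired, was dim and differed by −0.13 ± 0.13 in kidney and −0.05 ± 0.21 in heart at 1 h. Of the 16 measured genes of mitochondrial stress and mitokines, 1 was called in kidney at 1 h and 1 at 3 h, against 1.51% and 0.261% of probe sets, both times Ddit3. In heart 0 were called by limma at any time (0.454% of probe sets at 1 h), with 4 at an unadjusted p under 0.05 at 1 h, 0 at 3 h, 0 at 6 h and 1 at 24 h. Without Rat351, 2 were called in heart at 1 h, Ddit3 (0.84 ± 0.13) and Trib3 (0.96 ± 0.22, limma adjusted p 0.0146), against 1.19%.

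Markers of other cells were read beside the kidney and heart values. In kidney at 1 h, 2 of 6 red cell markers were called higher, against 1.51% of all probe sets. They were Alas2 (1.38 ± 0.35) and Ahsp (0.82 ± 0.22), and the mean over the list was 4.69 to 5.02 in Air kidneys and 5.12 to 5.45 in PH3 kidneys. Macrophage markers had 0 of 9 called by limma (1 at an unadjusted p under 0.05), with list means of 6.22 to 6.81 in Air and 6.57 to 6.78 in PH3. At 3 h the red cell mean was 4.82 to 4.90 in Air kidneys and 4.97 to 5.08 in PH3 kidneys. By limma 0 of 6 were called, against 0.261% of probe sets called higher, and 0 had an unadjusted p under 0.05. At 6 h the means of the neutrophil and blood leukocyte lists, which share S100a8, S100a9 and Csf3r, lay lower in PH3 kidneys. The neutrophil mean was 3.95 to 4.16 in Air and 3.55 to 3.77 in PH3, and the blood leukocyte mean 5.29 to 5.70 in Air and 5.06 to 5.24 in PH3. By limma 0 of 7 and 0 of 8 of these markers were called, and 2 and 3 had an unadjusted p under 0.05. At that time 3 of 31042 probe sets were called higher and 2 lower. The macrophage means overlapped, at 6.49 to 6.87 in Air and 6.27 to 6.74 in PH3 kidneys. In heart at 1 h, 0 of 6 red cell markers were called by limma (2 at an unadjusted p under 0.05), against 0.454% of probe sets called higher, with list means of 5.07 to 6.08 in Air and 5.71 to 6.49 in PH3. Their part in the Gdf15 differences was not tested. Blood itself had a Gdf15 difference of −0.42 ± 0.34 at 1 h, with overlapping groups, and its bearing on the kidney and heart values was not tested. The kidney 3′ index at 1 h was 0.309 ± 0.077 (SD, n = 4) in Air and 0.295 ± 0.055 in PH3.

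Deviations of Gdf15 from group means were compared between tissues of the same rats in 15 pairs of tissues by permutation of rats within groups. By Pearson's r and by Spearman's rho, 0 pairs had an adjusted p under 0.05, and by each measure 1 pair was under 0.05 unadjusted. By r it was blood and heart (r −0.14, permutation p 0.0301, adjusted 0.451). By rho it was heart and lung (rho 0.43, permutation p 0.0131, adjusted 0.196), where r was 0.17 (permutation p 0.116). Without the 2 farthest rats that rho was 0.39 (permutation p 0.0426). For heart and kidney, r was −0.01 and rho 0.07 over 30 rats (permutation p 0.962 and 0.744). Against 6 stress genes and the 3′ index in the same tissue, 0 of 42 Pearson correlations passed adjustment and 9 were under 0.05 unadjusted. Heart Gdf15 and Cdkn1a had rho 0.61 (adjusted permutation p 0.0332) and r 0.48 (adjusted 0.143) over 32 arrays, and r was 0.52 without the 2 farthest arrays. Kidney Gdf15 and Atf3 had r 0.49 (permutation p 0.0365, adjusted 0.192), and r was 0.44 without the 2 farthest arrays. The rest of the 9 lay in other tissues. In lung r was 0.46 for Trib3, 0.49 for Cdkn1a and 0.53 for Mdm2. In brain stem it was 0.46 for Atf3 and 0.48 for Trib3, and in olfactory bulb 0.66 for Atf3 and 0.47 for Ddit3.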

How the data were processed

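Per the submitters' processing notes, the authors used Partek and RMA, and the deposited values are log2 intensities, 1 per probe set and array, from 2.04 to 14.2. RMA subtracts background, quantile normalizes and summarises probes; the versions and the set of arrays normalized together are not given in these sources. Of 31139 probe sets, 97 controls were left out and 31042 tested; 19062 name 1 gene, 573 several and 11407 none here. Symbols follow the platform annotation, and 18983 probe sets matched GRCr8 RefSeq by gene ID.

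Each PH3 group was set against its Air group by limma 3.58.1 in R 4.3.3, 1 fit per tissue with 8 groups, two-sided, with Benjamini-Hochberg adjustment over all probe sets. Effects are PH3 minus Air, ± SE. Each array of a tissue came from another rat number, so p-values measure the spread between rats. Precision is limited by the number of arrays. A list gene was read by its probe set with the highest mean over all arrays.

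Gdf15 and the lists were chosen with earlier results of these data known. The genes named were Gdf15, up to 6 called members of each pathway list in each comparison described, a set named whether called or not (Gfral, Ret, Furin, Fgf21, Ddit3, Atf4, Atf3, Atf5, Trib3, Chac1, Asns, Cdkn1a, Mdm2 and Egr1), and the 8 genes most like Gdf15. The cell marker lists were read beside them. One further list and 1 gene named by this rule are not reported here. Within-group deviations were tested with 100000 permutations (Python 3.11.15, scipy 1.17.1) and adjusted by Benjamini-Hochberg.

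Rat numbers pair tissues of 1 animal and never PH3 with Air; limma's estimated correlation within a rat over the tissues was 0.0168. On simulated arrays the kidney fit at 1 h recovered 91% of changes of 1 log2 unit and the heart fit 78%, over 31042 probe sets. Alternatives were array medians subtracted, the groups of a time alone, the rat as a block, the 3′ index as a covariate, Air of all times as control, brighter probe sets, another probe set per gene, and each rat left out.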

Additional observations from a re-analysis of the deposited data

Results flagged for a closer look

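In 3 of 47 Gdf15 groups 1 array stood far from the rest, with the gap to its nearest neighbour as a share of the group's range given here. In brain stem, Air Rat365 at 3 h (3.73, others 3.12 to 3.19) had a share of 0.893 and PH3 Rat375 at 6 h (3.39, others 3.07 to 3.11) had 0.868. In olfactory bulb at 1 h, PH3 Rat483 (3.77, others 3.11 to 3.20) had 0.856. The heart of Rat351 at 1 h had 0.822 for Gdf15, just under the critical value for 4 arrays. Such a gap arises in about 1 in 20 groups without any cause, and 11 of 151 groups examined had one.

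Among partner genes, Atf3 in PH3 hearts at 1 h had 0.858, with Rat351 lowest. PH3 Rat357 was highest for Fgf21 (0.914) and Atf5 (0.836) in heart, for Atf5 in lung (0.865) and for Trib3 in kidney (0.914) at 1 h. Air Rat353 was lowest for Ddit3 in heart at 1 h (0.91), Air Rat365 highest for Asns in kidney at 3 h (0.928) and Air Rat354 highest for Mdm2 in lung at 1 h (0.91).

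At 3 h every PH3 heart lay below, and every PH3 kidney and olfactory bulb above, the Air arrays of its tissue. The Gdf15 difference in heart minus that in kidney was −2.11, and minus that in olfactory bulb −0.63; these differences between tissues were not tested.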

How the results depend on the processing

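Of the Gdf15 differences under the alternatives, 116 moved by less than the spread between rats. They include the groups of a time alone, whose differences equal those of the main fit by construction. With the rat as a block the differences also hardly left those of the main fit, so the count shows little for either setting. The 4 others used Air arrays of all times as control: kidney at 6 h (0.97) and 24 h (−0.13), heart at 3 h (−0.17) and olfactory bulb at 6 h (0.071). Lung at 3 h counts among the 116, although the 3′ index as a covariate took its difference from −0.33 to −0.01. All 192 differences with 1 rat left out also stayed within the spread between rats. Leaving out 1 rat can hardly move a group mean by more than that spread, so this count shows little. With 1 rat left out, the difference ran from 2.58 to 4.07 in heart at 1 h and from −0.006 to 0.56 in blood at 3 h. With the rat as replicate block, Gdf15 differed by 2.83 ± 0.30 in kidney and 3.06 ± 0.30 in heart at 1 h. That SE is shared by all tissues in 1 fit, so it does not reflect the divided heart group. The groups of 1 h alone gave an SE of 0.82 in heart and 0.16 in kidney. Counts of stress response members called higher moved more, and the cause was not tested. Calls over all probe sets moved too. With array medians subtracted, probe sets called higher went from 141 to 205 in heart at 1 h and from 81 to 50 in kidney at 3 h. Without Rat351 their share in heart at 1 h went from 0.454% to 1.19%. For the other settings this share is not given here. The list counts that follow therefore cannot be told apart from a shift in calls over the whole array. A fit of 1 time also holds fewer arrays than the main fit. The integrated stress response list went in kidney at 3 h from 1 to 0 with the groups of that time alone and to 5 with Air of all times. In heart at 1 h it went from 3 to 0 with the groups alone, 5 with array medians subtracted, 9 with Air of all times and 6 with the rat block. In lung at 1 h it went from 6 to 1 with the groups alone and to 1 with the rat block. Leaving out 1 rat gave 6 to 7 stress response calls in kidney at 1 h, 1 to 3 at 3 h (3 without PH3 Rat399), 2 to 6 in heart (6 without PH3 Rat351) and 2 to 7 in lung (2 without PH3 Rat343, PH3 Rat357 or Air Rat352). Among single named genes under the other alternatives, 11 came past the threshold, 8 fell short of it and 282 stayed on their side; 0 changed sign after a call. Nervous tissue values of Gdf15 near 3 lie close to the lowest deposited value of 2.04, which limits what a fall there could show.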
